A study of Mus musculus with 10 samples.

Results

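Chromatin loops were described at 4 mouse genes of the CC chemokine receptor family, Ccr1, Ccr2, Ccr3 and Ccrl2, all on chromosome 9. A loop here is a pair of 10 kb bins that a loop list joins. A loop was counted at a gene when an anchor bin overlapped the 100 kb on either side of its transcription start site (TSS), which gave 355 of the 301424 lines in the 5 lists, or 155 of 153264 distinct bin pairs. The cells were bone marrow-derived macrophages (MFs) of wild type female C57BL/6 mice, 2 to 3 months old, differentiated with M-CSF and treated on day 6. M0[CTR] MFs were untreated. M2[IL-4] MFs received IL-4 at 20 ng/ml for 24 h, and M2p[pIL-4] MFs received the same IL-4, were washed and then rested for 24 h. IFNG MFs were unprimed and had IFNG (20 ng/ml, 3 h), and pIL-4 + IFNG MFs received it after the IL-4 and the rest. Each group had 2 Hi-C samples and 1 loop list, so no value below has a replicate check, and intervals are 95% intervals that cover counting error only. Hi-C counts ligated pairs of DNA segments that were near each other in the nucleus and does not measure RNA, so the identity of the cells could not be checked against marker genes.

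Chemokine receptors are membrane proteins coupled to G proteins that steer leukocytes along gradients of secreted chemokines. Ccr2 is the receptor for Ccl2 and draws monocytes out of the bone marrow into inflamed tissue. Ccr1 binds Ccl3 and Ccl5 and is carried by monocytes, MFs and neutrophils. Ccr3 binds the eotaxins Ccl11 and Ccl24 and is best known from eosinophils. Ccrl2 is an atypical receptor that holds the chemoattractant chemerin, the product of Rarres2, at the cell surface without signalling itself.

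The genes did not form a single cluster. Ccr1 (ENSMUSG00000025804.5, chr9:123962124-123968692, minus strand), Ccr3 (ENSMUSG00000035448.9, chr9:124021972-124031689, plus strand) and Ccr2 (ENSMUSG00000049103.14, chr9:124101950-124113557, plus strand; all GRCm38) were neighbours. Their TSSs lay 53.3 kb (Ccr1 to Ccr3) and 80.0 kb (Ccr3 to Ccr2) apart. Ccrl2 (ENSMUSG00000043953.12, chr9:111054486-111057519, minus strand) had its TSS 12.9 Mb from that of Ccr1. It is therefore described apart, and "the cluster" means Ccr1, Ccr3 and Ccr2, whose windows overlap and share most of their loops. The cluster held 138 distinct bin pairs and Ccrl2 held 17.

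The promoters are shown because the loops below are described around the start sites of these genes and because IL-4 and IFNG act through STAT factors that bind short palindromes. Each line gives the 250 bases before the RefSeq start (GRCm38.p6), 5′ to 3′ on the strand of the gene, with GAGGAA, a core of sites for the myeloid factor PU.1, in capitals. They are chr9:123968693-123968942 for Ccr1, chr9:124021721-124021970 for Ccr3, chr9:124101933-124102182 for Ccr2 and chr9:111057519-111057768 for the most upstream of 3 RefSeq starts of Ccrl2. These starts are within 1 base of the GENCODE TSSs used for the anchors, except that the RefSeq start of Ccr2 lies 233 bases downstream, so that most of the Ccr2 stretch printed follows the GENCODE TSS.
Ccr1: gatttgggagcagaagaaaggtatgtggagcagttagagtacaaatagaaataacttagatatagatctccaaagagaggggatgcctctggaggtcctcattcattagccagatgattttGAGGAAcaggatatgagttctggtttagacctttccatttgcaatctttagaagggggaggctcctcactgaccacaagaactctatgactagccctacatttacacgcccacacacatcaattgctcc
Ccr3: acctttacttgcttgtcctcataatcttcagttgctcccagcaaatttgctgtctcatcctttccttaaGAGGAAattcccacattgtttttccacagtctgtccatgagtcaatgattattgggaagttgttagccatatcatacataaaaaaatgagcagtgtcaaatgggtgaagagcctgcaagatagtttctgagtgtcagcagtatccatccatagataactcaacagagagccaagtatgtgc
Ccr2: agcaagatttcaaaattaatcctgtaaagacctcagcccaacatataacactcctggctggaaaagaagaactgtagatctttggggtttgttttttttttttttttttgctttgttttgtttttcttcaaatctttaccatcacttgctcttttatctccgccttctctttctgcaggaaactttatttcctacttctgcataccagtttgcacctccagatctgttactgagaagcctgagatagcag
Ccrl2: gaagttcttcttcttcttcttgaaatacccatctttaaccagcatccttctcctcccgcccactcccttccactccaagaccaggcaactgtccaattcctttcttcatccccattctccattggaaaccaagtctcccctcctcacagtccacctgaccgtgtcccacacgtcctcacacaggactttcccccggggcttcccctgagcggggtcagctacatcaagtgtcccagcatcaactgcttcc
All 4 genes were matched by symbol. Searched on both strands in windows of 300 bases, which add 50 bases after the start, neither the STAT6 palindrome TTCNNNNGAA nor the gamma-activated palindrome TTCNNNGAA occurred in any window of the 4 genes. These letters occurred in 6.95% and 8.30% of 32851 RefSeq promoter windows. GAGGAA occurred once in the Ccr1 window (position -129 from the start) and once in the Ccr3 window (position -181), against 28.3% of all windows with at least 1 match. These are matches of letters and not measured binding sites.

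The lists held between 53424 loops (M0[CTR]) and 67728 loops (M2p[pIL-4]), and their summed contacts ran from 2174945 to 2787117. These totals are the called part of each library and not its sequencing depth, which the lists do not give. Because the lists differ in length, loop numbers were also given per 10000 loops of the list.

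The cluster was rich in loops in all 5 lists. Near Ccr1 there were 53 loops in M0[CTR] MFs, 54 in M2[IL-4] MFs, 61 in M2p[pIL-4] MFs, 59 in IFNG MFs and 65 in pIL-4 + IFNG MFs. Near Ccr3 the numbers in the same order were 60, 59, 66, 62 and 69. Near Ccr2 they were 55, 52, 58, 54 and 64. The mean of 63.2 loops near Ccr3 was higher than that of 95.4% of 21755 protein-coding genes, and those of Ccr1 (58.4) and Ccr2 (56.6) exceeded 94.5% and 93.9% of genes, where the median gene had 7.40. Ccrl2 lay below that median with a mean of 4.60 loops. It had 2 in M0[CTR] MFs, 4 in M2[IL-4] MFs, 8 in M2p[pIL-4] MFs, 4 in IFNG MFs and 5 in pIL-4 + IFNG MFs.

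**Figure D1:**
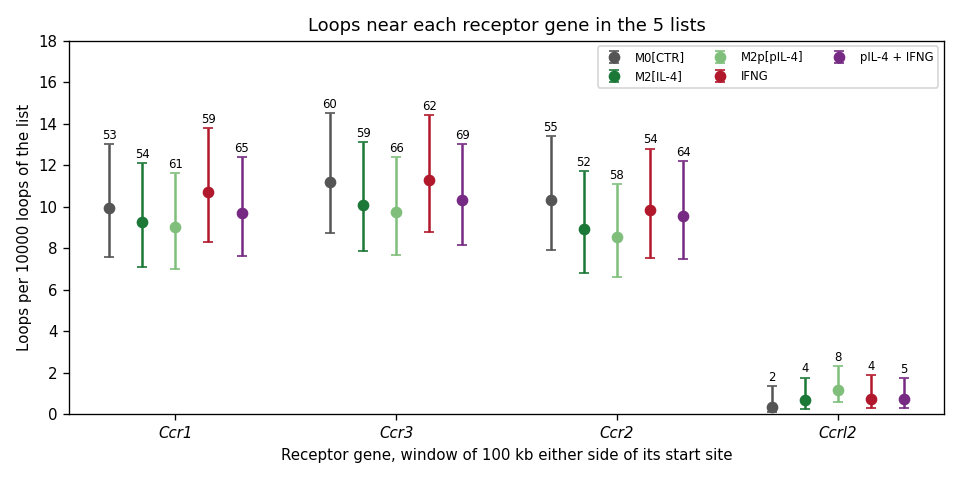
Loops near each receptor gene per 10000 loops of the list (y axis), with 95% Wilson intervals as bars and the number of loops above each bar. The values of the 5 lists overlap at Ccr1, Ccr3 and Ccr2 (8.56 to 11.3 per 10000), and Ccrl2 stands far lower (0.374 to 1.18).

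Scaled by list length, the 5 lists were close to each other at the cluster. Loops per 10000 ran from 9.01 in M2p[pIL-4] to 10.7 in IFNG at Ccr1, from 9.74 to 11.3 in the same lists at Ccr3, and from 8.56 in M2p[pIL-4] to 10.3 in M0[CTR] at Ccr2. M2p[pIL-4] was lowest at all 3 genes, but its interval overlapped that of every other list. The highest list exceeded the lowest by 1.19-fold at Ccr1, 1.16-fold at Ccr3 and 1.20-fold at Ccr2. Of 1286 genes with a mean of 50 to 75 loops, whose median was 1.30-fold, 19.8%, 12.1% and 22.9% had a smaller ratio.

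The loops of the cluster were weak for their span. Strength was taken as the contacts of a loop over the median contacts of loops of the same span in the same list, so that 1 is typical. The median strength over all lists was 0.811 near Ccr1, 0.806 near Ccr3 and 0.818 near Ccr2, against a median of 1.00 over 9751 genes with a mean of at least 10 loops. Only 1.11%, 1.07% and 1.29% of those genes had a lower value. The median count of 31.0 to 37.0 contacts per loop was near the 32 of every list. The spans were unlike, however, with a median of 100 to 105 kb in the cluster against 160 to 180 kb over the lists. The loops of the cluster held 3013 contacts in M0[CTR] MFs, 2702 in M2[IL-4] MFs, 3140 in M2p[pIL-4] MFs, 2888 in IFNG MFs and 2981 in pIL-4 + IFNG MFs.

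Most loops stayed inside the cluster. Both anchors lay between the unsequenced stretches that flank it in 59 of 64 loops in M0[CTR] MFs, 58 of 62 in M2[IL-4] MFs, 64 of 69 in M2p[pIL-4] MFs, 60 of 65 in IFNG MFs and 68 of 72 in pIL-4 + IFNG MFs. The assembly holds no bases over 50 kb on the Ccr1 side (chr9:123873111-123923110) and over 87.4 kb on the Ccr2 side (chr9:124161430-124248836), so that the sequence between them is 238.3 kb long. No read can be placed in these stretches, and true distances across them are unknown; their part in the reach of the loops was not tested. Loops across the Ccr2-side stretch numbered 3, 4, 3, 3 and 3 in the 5 lists in the order above, and loops across the Ccr1-side stretch 1, 0, 1, 1 and 1. On the far side of the latter lie Xcr1, which encodes the receptor for Xcl1, and Fyco1. A pair of bins 133.0 and 253.0 kb beyond the Ccr3 TSS, on either side of the Ccr2-side stretch, was called in every list, with 35, 33, 38, 33 and 37 contacts.

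**Figure D2:**
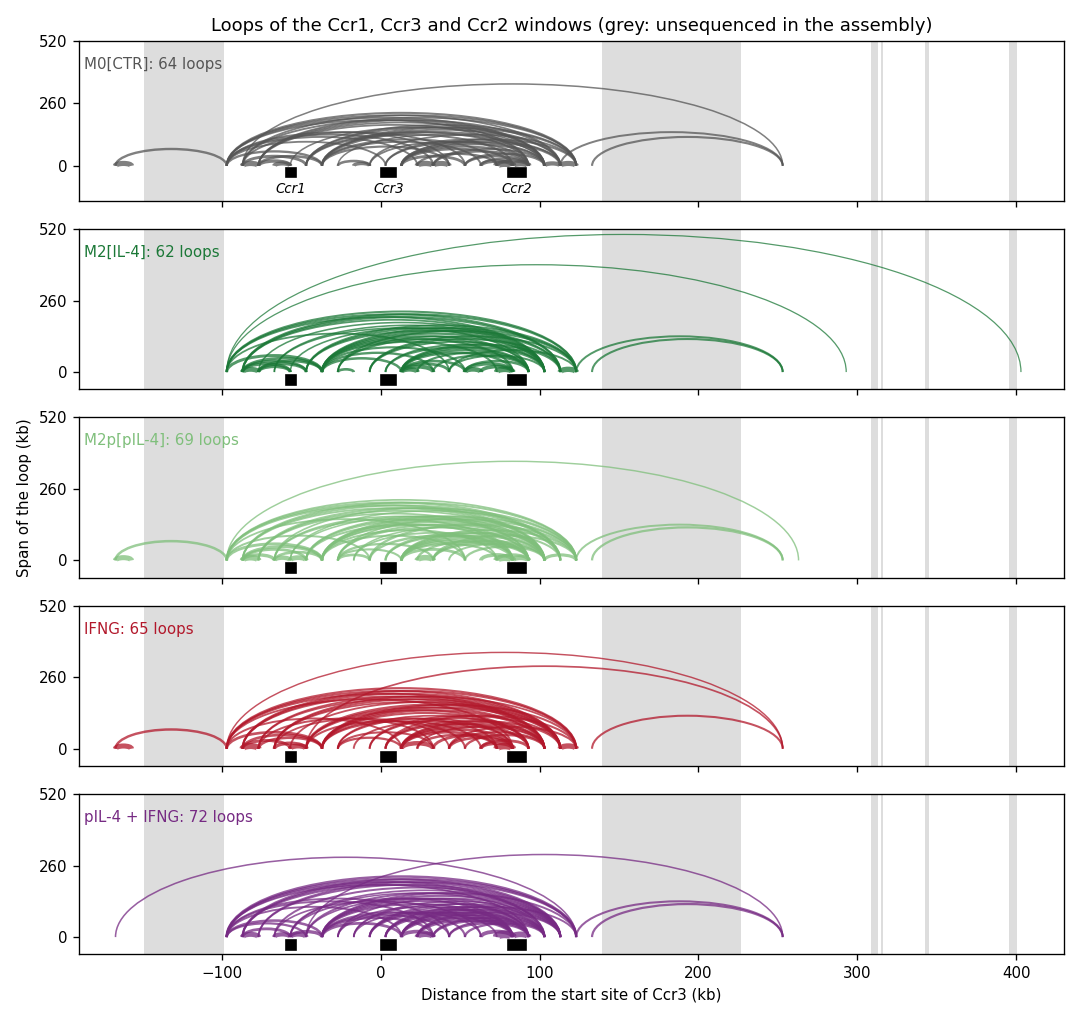
Loops of the cluster in each list, drawn as arcs between bin centres over the distance from the Ccr3 TSS in kb, with arc height equal to the span in kb and thicker lines for more contacts. Black boxes are the genes and grey areas the unsequenced stretches; in each list over 92% of the loops lie between the wide grey areas on either side of the genes, and most arcs end on the Ccr2 side.

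Anchors were spread unevenly, with the heaviest use beyond Ccr2. Bins are named here by the distance of their centre from the Ccr3 TSS, with negative values towards Ccr1. Summed over the 5 lists, the bin at 103.0 kb, past the Ccr2 TSS, anchored 61 loops, with 11 to 14 in each list. It was followed by the bin at -37.0 kb between Ccr1 and Ccr3 (49 loops), the bins at 113.0 and 93.0 kb (45 and 44 loops; the latter lies in the Ccr2 gene), and the bins at -97.0 and 123.0 kb (42 each), which are the last before the unsequenced stretches or close to them. The bin at 13.0 kb, which holds the 3′ part of Ccr3, anchored 39 loops.

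**Figure D3:**
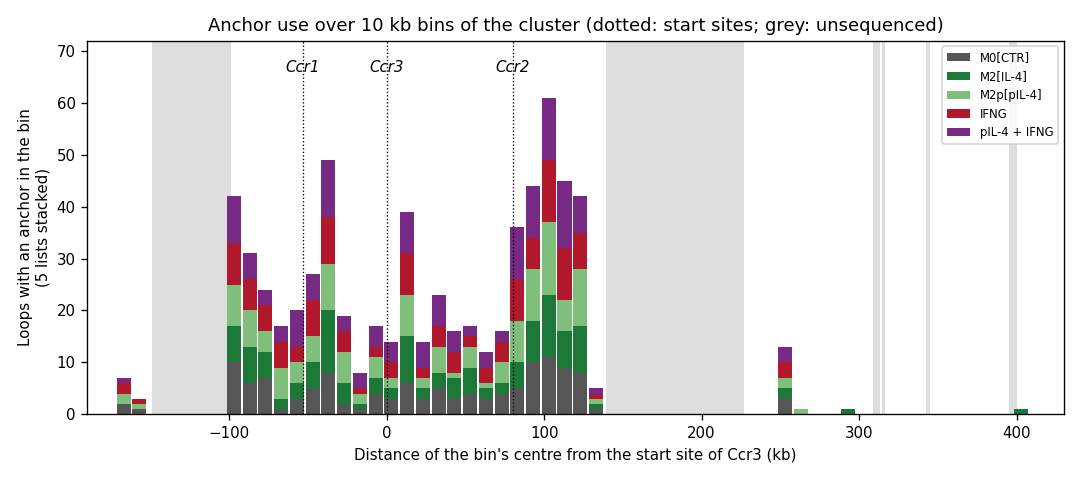
Number of loops with an anchor in each 10 kb bin (y axis), stacked over the 5 lists, by distance of the bin from the Ccr3 TSS in kb. The TSS bins of Ccr1 (20 loops) and Ccr3 (14) carry fewer than the busiest bins, whereas the Ccr2 TSS bin (36) opens a run of bins with 44, 61, 45 and 42 loops.

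The loops were sorted by the stretch of their anchors, with stretches set after the anchor profile had been seen: 80 kb around Ccr1, 100 kb around Ccr3 and 50 kb from the Ccr2 TSS bin outward. Loops from the Ccr1 side to the Ccr2 side made up 19 of 64 in M0[CTR] MFs, 21 of 62 in M2[IL-4] MFs, 24 of 69 in M2p[pIL-4] MFs, 22 of 65 in IFNG MFs and 22 of 72 in pIL-4 + IFNG MFs. Loops from the Ccr3 stretch to the Ccr2 side numbered 17, 17, 20, 19 and 26. Only 9, 6, 7, 8 and 9 loops joined the Ccr1 side to the Ccr3 stretch. In each list, loops with 1 end on the Ccr2 side and the other on either of the other stretches were thus 56.2% to 66.7% of the total, and those from the Ccr1 side had a median strength of 0.861 to 0.966, against 0.722 to 0.819 for those from the Ccr3 stretch.

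Of the start sites, that of Ccr2 anchored most loops. Its bin anchored 5 loops in M0[CTR] MFs, 5 in M2[IL-4] MFs, 8 in M2p[pIL-4] MFs, 8 in IFNG MFs and 10 in pIL-4 + IFNG MFs. Of these, 4, 5, 7, 8 and 9 had their partner on the side of Ccr3 and Ccr1. The Ccr1 TSS bin anchored 3, 3, 4, 3 and 7 loops and the Ccr3 TSS bin 3, 2, 2, 3 and 4. The list of pIL-4 + IFNG was highest at each of the 3 start sites, by 1 to 3 loops over the next, numbers too small to order the lists. The Ccrl2 TSS bin anchored no loop in any list.

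The Ccr2 TSS bin kept 3 partners in all 5 lists. With the bin next to it, 10 kb towards Ccr3, it had 168 contacts in M0[CTR] MFs (interval 144 to 195), 128 in M2[IL-4] MFs (107 to 152), 160 in M2p[pIL-4] MFs (136 to 187), 157 in IFNG MFs (133 to 184) and 187 in pIL-4 + IFNG MFs (161 to 216). M2[IL-4] was lowest, and its interval did not overlap that of pIL-4 + IFNG. These are the extremes of the 5 lists, uncorrected for that choice. The highest list exceeded the lowest by 1.46-fold, which is also the median over the 19 cluster pairs called in all lists. Those pairs had a median of only 33.0 to 39.0 contacts in a list, where counting error is larger, so the 2 values are not directly comparable. With the bin 20 kb away the contacts were 74, 78, 75, 74 and 80, nearly level. With the bin 70 kb away, in the 3′ part of Ccr3, they were 44, 44, 61, 56 and 47, with overlapping intervals.

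**Figure D4:**
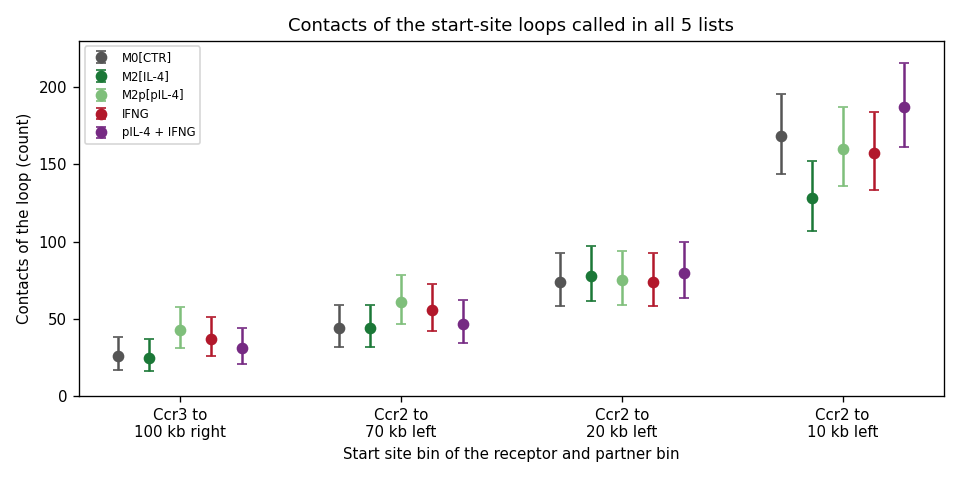
Contacts (y axis, count) of the 4 start-site loops called in all 5 lists, with exact 95% Poisson intervals as bars. The Ccr2 loop to the adjacent bin ranges from 128 to 187 contacts, and at each of the other loops the intervals of the lists overlap.

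Among the 3 cluster genes Ccr1, Ccr3 and Ccr2, loops from gene to gene were mainly between Ccr3 and Ccr2. The bins that Ccr3 and Ccr2 occupy can form 4 bin pairs, of which 2 were called in M0[CTR], 3 each in M2[IL-4], M2p[pIL-4] and IFNG, and 4 in pIL-4 + IFNG. Their contacts summed to 77, 123, 140, 125 and 147, and these sums follow the number of pairs called. The pair of the Ccr3 and Ccr2 TSS bins themselves was called only in pIL-4 + IFNG, with 41 contacts. The pair of the Ccr1 and Ccr2 TSS bins was also called only there, with 28 contacts. Both had a neighbouring pair within 25 kb called in another list. A pair that is not called has no count in a list, so its contacts in the other lists are unknown. No list joined Ccr1 to Ccr3.

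The TSS bin of Ccr3 had 1 loop in all 5 lists, to the bin at 103.0 kb, with 26 contacts in M0[CTR] MFs, 25 in M2[IL-4] MFs, 43 in M2p[pIL-4] MFs, 37 in IFNG MFs and 31 in pIL-4 + IFNG MFs. The lowest interval (16.2 to 36.9 in M2[IL-4]) overlapped the highest (31.1 to 57.9 in M2p[pIL-4]). Its loop to the bin at 93.0 kb, in the Ccr2 gene, was called in every list but M0[CTR], with 34, 31, 37 and 28 contacts. The TSS bin of Ccr1 had no loop common to all lists. Its most frequent partner was again the bin at 103.0 kb, with 20 contacts in M0[CTR] MFs, 21 in M2[IL-4] MFs, 20 in M2p[pIL-4] MFs and 18 in pIL-4 + IFNG MFs. Its loop to the bin at 113.0 kb was called only in IFNG (27 contacts) and pIL-4 + IFNG (24). With the adjacent bin that holds the start of the Ccr1-like gene Ccr1l1, it had 107 contacts in M2p[pIL-4] MFs, 113 in IFNG MFs and 102 in pIL-4 + IFNG MFs and was not called in the other 2 lists.

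The strongest loops for their span joined the outer ends of the cluster. The pair at -97.0 and 123.0 kb, 220 kb apart, led by strength summed over the lists, with 33 contacts in M0[CTR] MFs, 32 in M2[IL-4] MFs, 25 in M2p[pIL-4] MFs, 37 in IFNG MFs and 46 in pIL-4 + IFNG MFs. Its strength was lowest in M2p[pIL-4] (0.926) and highest in pIL-4 + IFNG (1.77), and the intervals of these counts (16.2 to 36.9 and 33.7 to 61.4) overlapped. Second was the pair at -37.0 and 103.0 kb, which joins the 2 most used bins, with 46, 42, 51, 39 and 32 contacts. It was lowest in pIL-4 + IFNG, opposite to the first. The bin at -97.0 kb lies partly in unsequenced bases.

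Loop anchors are often bound by the insulator factor CTCF, whose site is directional, so the core CCANNAGNNGGC was searched on both strands of the anchor bins. It occurred in 7 of 30 anchor bins of the cluster (23.3%), against 42.4% of 12118 bins of chromosome 9, and in 10 of 17 anchor bins near Ccrl2 (58.8%). The bin at -37.0 kb and its neighbour at -27.0 kb held the same 26 bases in opposite orientation, and the Ccr2 TSS bin held a further match. These 3 are shown, chosen after they were seen, for the copied site beside a busy anchor and for the start site of Ccr2, with the core in capitals, each 5′ to 3′ on the strand of the match, at chr9:123983355-123983380 (plus), chr9:123993560-123993585 (minus) and chr9:124103981-124104006 (plus) of GRCm38. The first 2 lie between protein-coding genes, and the third lies within Ccr2.
Bin at -37.0 kb: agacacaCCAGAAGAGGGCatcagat
Bin at -27.0 kb: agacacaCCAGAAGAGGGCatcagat
Ccr2 TSS bin: gcaaagaCCAGAAGAGGGCattggat
These bins anchored 49, 19 and 36 loops over the 5 lists. The same core letters also occurred in the bin that holds the Fyco1 TSS and in several anchor bins near Ccrl2. In some of the latter the flanking bases were nearly the same too, so the site was not particular to the bins shown. No CTCF binding was measured here.

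The comparisons of the study asked what IL-4 did, what remained after its removal and how IFNG acted with and without priming. A gene was called changed when its scaled loop number differed at least 1.5-fold, and 0 of the 3 cluster genes were called in any of the 6 comparisons. For M2[IL-4] over M0[CTR] the log2 ratio of the cluster was -0.17 (interval -0.70 to 0.36), and 13.2% of the 9751 genes were called. For M2p[pIL-4] over M0[CTR] it was -0.23 (-0.75 to 0.28; 9.35% of genes called), and for M2p[pIL-4] over M2[IL-4] -0.06 (-0.58 to 0.46; 10.1%). For IFNG over M0[CTR] it was -0.02 (-0.54 to 0.50; 15.0%). For pIL-4 + IFNG it was 0.08 over M2p[pIL-4] (-0.42 to 0.57; 11.2%) and -0.14 over IFNG (-0.64 to 0.37; 9.80%). Each interval included 0, so the counts did not settle the direction of a change, and comparisons that share a list are not independent. The intervals also count every bin pair separately, even where bin pairs touch each other. After touching bin pairs were merged, all 6 intervals were wider and still included 0. For M2[IL-4] over M0[CTR] the merged interval was -1.42 to 0.67, on 16 and 19 loops.

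This call depended on how list length was handled. When every list was shortened to 53424 loops by dropping its weakest, the cluster kept 64 loops in M0[CTR] MFs, 45 in M2[IL-4] MFs, 32 in M2p[pIL-4] MFs, 59 in IFNG MFs and 35 in pIL-4 + IFNG MFs. The log2 ratio then was -1.00 for M2p[pIL-4] over M0[CTR] (interval -1.66 to -0.37), with Ccr1 at -0.87, Ccr3 at -1.00 and Ccr2 at -1.03, where 7.52% of genes were at least 1.5-fold lower. For pIL-4 + IFNG over IFNG it was -0.75 (-1.40 to -0.13), with Ccr1 at -0.87 and Ccr3 at -0.81 past 1.5-fold and Ccr2 at -0.54, where 6.06% of genes were lower. In the other 4 comparisons 0 of the 3 genes passed, where 7.62% (M2[IL-4] over M0[CTR]), 6.60% (M2p[pIL-4] over M2[IL-4]), 7.54% (IFNG over M0[CTR]) and 5.63% (pIL-4 + IFNG over M2p[pIL-4]) of genes were lower. M0[CTR], the shortest list, lost no loop. Dropping weak loops takes most from loci whose loops are weak, and the cluster is such a locus. Which handling lies closer to the cells was not tested.

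Contacts of the bin pairs called in both lists of a comparison moved little. Against the total over the 14063 pairs called in all lists, the log2 ratio at the cluster was -0.01 for M2[IL-4] over M0[CTR] (33 pairs), 0.04 for M2p[pIL-4] over M0[CTR] (40 pairs), 0.06 for M2p[pIL-4] over M2[IL-4] (39 pairs) and 0.06 for IFNG over M0[CTR] (31 pairs, of which 21 were higher and 8 lower). It was -0.02 for pIL-4 + IFNG over M2p[pIL-4] (38 pairs) and -0.06 for pIL-4 + IFNG over IFNG (37 pairs, 10 higher and 24 lower). All these intervals included 0. Without that scaling, M2p[pIL-4] over M2[IL-4] was 0.12 (interval 0.02 to 0.22) and IFNG over M0[CTR] 0.10 (0.00 to 0.21). Among the single genes, Ccr1 in pIL-4 + IFNG over IFNG had an interval below 0 (-0.13, interval -0.24 to -0.01, 23 of 33 pairs lower), 1 of 18 such intervals and uncorrected for their number.

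A larger share of cluster pairs than of all pairs of the series was called in all 5 lists. In the same bins, 19 of 138 cluster pairs (13.8%) were called in all 5 lists and 47 (34.1%) in 1 list, against 9.18% and 55.5% over the whole series. When a call within 10 kb at both anchors counted as the same loop, 97 pairs were in all lists, and 120 were within 25 kb. A wider match can only raise the number, and a dense locus offers more neighbours to match, so these higher numbers are no measure of stability alone. The 19 constant pairs held 896 contacts in M0[CTR] MFs, 880 in M2[IL-4] MFs, 987 in M2p[pIL-4] MFs, 975 in IFNG MFs and 965 in pIL-4 + IFNG MFs. The highest list exceeded the lowest by a median of 1.46-fold at these pairs.

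Pairs that followed the treatments in the same bins were few in the cluster, as in the whole series. Of the shared patterns given here, only that of the washed-out lists had a smaller share in the cluster than in the series. The 3 IL-4-exposed lists alone shared 3 of 138 pairs (2.17%, against 1.45% of all pairs of the series), and M0[CTR] and IFNG alone shared 3 (2.17%, against 1.21%). Among the former, the pair at -37.0 and 53.0 kb had 35, 33 and 35 contacts. Among the latter, the pair at -37.0 kb and the next bin outward, 63.0 kb, had 30 and 33 contacts. Pairs of the same anchor with the bins on either side of these did not follow IL-4 exposure. The pair with the bin at 73.0 kb was called in every list but pIL-4 + IFNG (31, 33, 31 and 33 contacts). The pair with the bin at 43.0 kb was called in M0[CTR] (36 contacts) and pIL-4 + IFNG (31). Both IFNG lists alone shared 6 pairs (4.35%, against 2.11%), which included the Ccr1 TSS pair above. The 2 lists with washed-out IL-4 alone shared 2 pairs (1.45%, against 2.72%), 1 of them from the bin at -7.0 kb to the Ccr2 TSS bin, with 43 and 35 contacts. Of the loops called in 1 list in the same bins, 3 had no counterpart within 25 kb in any other list. They were a pair of long loops of M2[IL-4] from the bin at -97.0 kb with 12 and 11 contacts, and a loop of pIL-4 + IFNG from the bin at -167.0 kb, which holds the Fyco1 TSS, with 20 contacts.

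Ccrl2 differed from the cluster in having few loops, none at its start site. The loops near it were placed differently in each list. In M0[CTR] both loops arched over the Ccrl2 TSS bin, and in IFNG all 4 did, with 36 to 46 contacts each. In M2[IL-4] none did, and all 4 loops lay upstream of it, towards Lrrfip2. In M2p[pIL-4] 3 loops arched over it, 1 lay towards Ltf, the gene of lactoferrin, and 4 towards Lrrfip2. In pIL-4 + IFNG the numbers were 2, 1 and 2. With 2 to 8 loops per list these placements are descriptions of single lists.

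**Figure D5:**
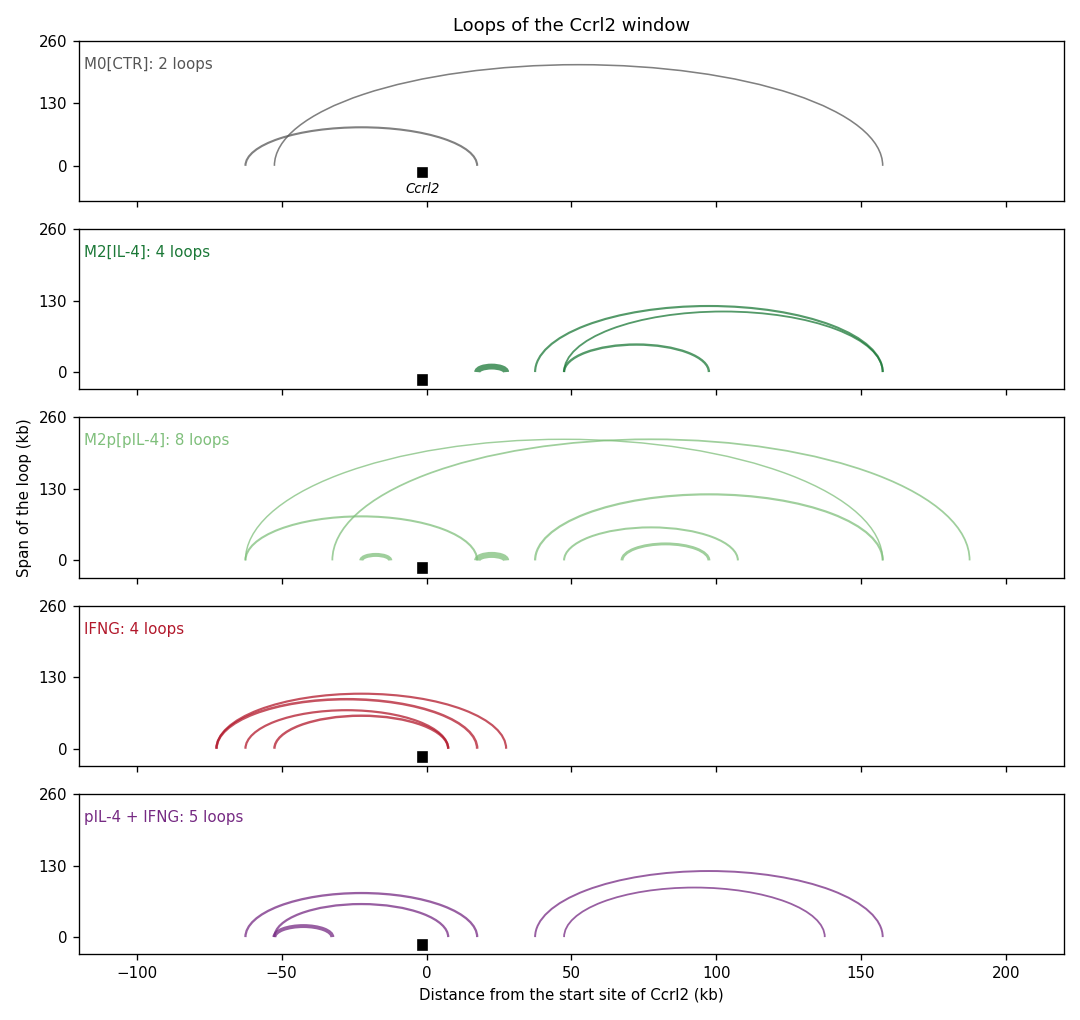
Loops near Ccrl2 in each list, drawn as arcs over the distance from its TSS in kb, with arc height equal to the span in kb and thicker lines for more contacts. The 4 loops of IFNG all arch over the gene (black box) and the 4 loops of M2[IL-4] all lie on one side of it.

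No Ccrl2 bin pair was called in all 5 lists, and 13 of 17 were called in 1 list. Bins are named by distance from the Ccrl2 TSS. The bin at -62.5 kb, which holds the TSS of Rtp3, was joined over Ccrl2 to the bin at 17.5 kb with 34 contacts in M0[CTR] MFs, 33 in M2p[pIL-4] MFs and 39 in pIL-4 + IFNG MFs. A loop from 37.5 kb to the bin at 157.5 kb within Lrrfip2 was called only in the 3 IL-4-exposed lists, with 35 contacts in M2[IL-4] (interval 24.4 to 48.7), 36 in M2p[pIL-4] (25.2 to 49.8) and 30 in pIL-4 + IFNG (20.2 to 42.8). A loop from -52.5 to 7.5 kb was called only in both IFNG lists, with 43 and 38 contacts. The adjacent bins at 17.5 and 27.5 kb were joined in M2[IL-4] (136 contacts) and M2p[pIL-4] (140).

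The loop number near Ccrl2 passed 1.5-fold in 5 of 6 comparisons, but each interval included 0 and its mean was below the 10 loops asked of a called gene. Over M0[CTR], M2[IL-4] had a log2 ratio of 0.87 (interval -1.93 to 4.34), M2p[pIL-4] of 1.66 (-0.67 to 4.93) and IFNG of 0.96 (-1.84 to 4.42). It was 0.78 for M2p[pIL-4] over M2[IL-4] (-1.12 to 2.96), -0.66 for pIL-4 + IFNG over M2p[pIL-4] (-2.62 to 1.13) and 0.04 for pIL-4 + IFNG over IFNG (-2.18 to 2.37).

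Of 18 other chemokine receptor genes, 10 had a mean of at least 10 loops, with a median of 16.8 over these 10. In IFNG over M0[CTR] 4 of the 10 were called lower and 0 higher, where 7.34% and 7.70% of all genes were. Ccr9, a receptor of gut-homing cells, went from 13 to 5 loops and Cxcr6 from 16 to 8. These 2 genes lie on chromosome 9 as well, and their loop numbers ran in parallel. In the 5 lists, in the order above, Ccr9 had 13, 17, 20, 5 and 21 loops and Cxcr6 had 16, 22, 23, 8 and 23. Whether they share loops was not checked, so these 2 genes may not be separate observations in this and the following counts. The same holds for Cxcr1 and Cxcr2 on chromosome 1 and for Ccr8 and Cx3cr1 on chromosome 9, whose numbers also ran much alike. The other genes called lower in IFNG over M0[CTR] were Cxcr1 (20 and 11 loops) and Cxcr4 (38 and 17). In pIL-4 + IFNG over IFNG 2 of 10 were called higher and 0 lower, namely Ccr9 with 21 loops and Cxcr6 with 23 (6.65% and 3.16% of all genes were higher and lower). Ccr8 was lower in M2p[pIL-4] over M0[CTR] (log2 ratio -0.63, 1 of 10, where 3.87% of all genes were lower), and Cxcr2 and Cxcr4 were lower in pIL-4 + IFNG over M2p[pIL-4] (-0.75 and -1.07, 2 of 10, where 4.68% of all genes were lower). No receptor of the 10 was called in M2[IL-4] over M0[CTR] or in M2p[pIL-4] over M2[IL-4]. The cluster genes had log2 ratios of -0.07 to 0.11 in IFNG over M0[CTR], where the 10 receptors had a median of -0.44; the difference was not tested.

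Of 13 genes for ligands of these receptors, 12 had a mean of at least 10 loops and 0 of 12 were called in any comparison, where 5.49% to 7.70% of all genes were called higher and 3.16% to 7.34% lower. Their windows overlap within the chemokine clusters, so that they are not separate observations. Ccl2, the main ligand of Ccr2, had 28 loops in M0[CTR] MFs, 28 in M2[IL-4] MFs, 32 in M2p[pIL-4] MFs, 38 in IFNG MFs and 47 in pIL-4 + IFNG MFs. Its log2 ratio was 0.40 in IFNG over M0[CTR] and 0.57 in pIL-4 + IFNG over M2p[pIL-4], just short of 1.5-fold. Rarres2, which encodes the ligand of Ccrl2, had a mean of 4.00 loops and was left out of the count.

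The genes whose loop numbers followed those of the cluster most closely over the 5 lists were Susd1, Tmem107 and Sema4b. The measure was the root mean square difference of log2 loops per 10000 loops, each centred on its mean over the lists. It was 0.011 for Susd1, which had 41, 40, 45, 42 and 46 loops. For Ccrl2 the closest were Actr1a and Sufu, with the same numbers of loops in every list (8, 16, 29, 15 and 21) and a difference of 0.078, and Gtf2e2. With 5 lists and 9706 genes compared, close likeness is found for many patterns.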

How the data were processed

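Hi-C was run on 10 samples in 5 groups of 2, grouped by the sample titles. The authors deposited 1 loop list per group, so replicates appeared to be merged. Each line held a pair of 10 kb bins (mm10) and a count of contacts, which the authors deposited as whole numbers, apparently raw. The submitters' processing notes name FastQC, Bowtie2, HiC-Pro, Juicer and HOMER, and the methods describe nf-core/hic, balanced maps and HICCUPS loops at 25 kb. The caller and threshold behind the 10 kb lists are not given in the sources used here. A calling threshold leaves uncalled pairs without a count, and raw contacts follow depth and span.

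The annotation was GENCODE M21, with 21755 protein-coding genes. Loop numbers near a TSS (100 kb either side) were scaled by list length and compared in 6 pairs of lists, with Wilson intervals for shares, exact Poisson intervals for contacts and exact binomial intervals for ratios. No test was possible with 1 list per group. A call was at least 1.5-fold among genes with a mean of at least 10 loops. The counting was tested on the M0[CTR] list after loops had been removed from it at random and near chosen genes.

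The members, gene lists and measures were chosen with earlier results of these data known. Genes named were the members, genes with a TSS or body in an anchor bin described, 18 other chemokine receptors, 13 ligands and the 3 most alike genes per locus (TSS over 1 Mb from the members, pseudocount 1). Loops named were those at a member's TSS bin, the strongest of each locus and those found in 1 list. Loops across the unsequenced stretches and those given for the treatment patterns, the stretches of the cluster, the patterns and the PU.1 core were chosen after values had been seen. Not every neighbouring gene is reported here. Alternatives were windows of 50 and 25 kb, merging touching bin pairs, leaving out adjacent bins, at least 20 contacts, equal list lengths, no scaling, and matching within 10 or 25 kb. The computation used scipy 1.17.1, numpy 2.4.6 and pandas 2.3.3 under Python 3.11.15, and figures were drawn with matplotlib 3.10.9.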

Additional observations from a re-analysis of the deposited data

Results flagged for a closer look

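The loop number near Ccrl2 moved in opposite directions with IFNG in unprimed and IL-4-primed MFs. The log2 ratio was 0.96 in IFNG over M0[CTR] (4 and 2 loops) and -0.66 in pIL-4 + IFNG over M2p[pIL-4] (5 and 8 loops). With 1 list per group the difference was not tested, and the interval of each ratio included 0. After merging touching bin pairs both ratios were negative, at -1.04 and -0.99.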

How the results depend on the processing

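Of 220 alternative values for 38 results, 201 stayed within the counting interval or 1.5-fold of the reported value, 17 moved and 2 reversed. Of the log2 ratios among the 201, 35 changed sign, all at reported values short of 1.5-fold. Without scaling the cluster turned from -0.23 to 0.11 in M2p[pIL-4] over M0[CTR] and from -0.14 to 0.15 in pIL-4 + IFNG over IFNG. Contacts at shared pairs, unscaled, gave 0.12 in M2p[pIL-4] over M2[IL-4] (interval 0.02 to 0.22). Equal list lengths moved the log2 ratio of the cluster in M2p[pIL-4] over M0[CTR] to -1.00 and in pIL-4 + IFNG over IFNG to -0.75. Merging touching bin pairs left 19, 16, 20, 19 and 13 cluster loops in the 5 lists, and the ratio became -0.61 in pIL-4 + IFNG over M2p[pIL-4] (interval -1.74 to 0.47) and -0.75 in pIL-4 + IFNG over IFNG (-1.89 to 0.34); the cause was not tested. Cluster pairs in all 5 lists rose from 19 to 97 with matching within 10 kb and to 120 within 25 kb, by the wider match itself. At Ccrl2, M2[IL-4] over M0[CTR] reversed to -0.13 in a 25 kb window (interval -6.42 to 6.17) and IFNG over M0[CTR] to -1.04 after merging (-6.92 to 3.22), on a few loops each.

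No paired analysis was possible because the lists carry no values per replicate, and leaving out a replicate was not run for that reason. Counting error limits single loops, at a median of 31.0 to 37.0 contacts in the cluster.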
